A study of Mus musculus with 8 samples.

Results

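The 10 genes described here encode Cyp4 enzymes, the cytochrome P450 family that hydroxylates fatty acids at or near the end of the chain, and they were taken by symbol from a count table of mouse liver that lists 19267 genes. The members are Cyp4a10, Cyp4a14, Cyp4a31, Cyp4a32, Cyp4a12a, Cyp4a12b, Cyp4f13, Cyp4f14, Cyp4f15 and Cyp4v3. All 10 were present in all 8 libraries and passed the filter on low counts, as did 13993 genes in all. The rule that picks the members is by name, and the set was drawn up with earlier results of these data known.

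The livers came from male C57BL/6 mice aged 9 weeks, in 4 groups of 2 libraries that crossed genotype with diet. From 6 weeks of age the mice were pair-fed for 21 days with either a Lieber-DeCarli liquid diet holding 5% alcohol (EtOH) or a diet in which maltose dextrin replaced the alcohol calories (Control). WT mice are labelled wild type, and the study's methods call them Cre mice. Elf4-/- mice carried Elf4fl/fl with Villin-Cre, a Cre driven by a promoter of the intestinal epithelium, so that the gene was deleted in the gut and not by design in hepatocytes. The groups are called WT-Control and WT-EtOH for WT mice, and Elf4-/--Control and Elf4-/--EtOH for the others. The labels do not say whether the 2 libraries of a group came from separate animals, so p-values measure only the spread between these libraries.

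Fatty acids are normally broken down by beta-oxidation from the carboxyl end. Cyp4 enzymes of the endoplasmic reticulum attack the other end instead, and alcohol and aldehyde dehydrogenases then turn the hydroxy fatty acid into a dicarboxylic acid that peroxisomes shorten. In mouse liver, Cyp4a10 and Cyp4a14 are textbook targets of PPARA, the nuclear receptor that senses fatty acids, while the Cyp4a12 genes are more highly expressed in males. Cyp4f enzymes act on leukotrienes and other eicosanoids as well as fatty acids, and Cyp4v3 is the mouse counterpart of human CYP4V2, a fatty acid hydroxylase whose loss causes an inherited retinal disease.

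All 10 genes are protein coding, and the 6 Cyp4a genes lie in 1 cluster on chromosome 4 of GRCm38, the assembly called mm10. Along the chromosome they are Cyp4a12a (chr4:115299046-115332815, + strand), Cyp4a12b (chr4:115411624-115439034, +), Cyp4a14 (chr4:115486200-115496142, -), Cyp4a10 (chr4:115518264-115533649, +), Cyp4a31 (chr4:115563649-115579015, +) and Cyp4a32 (chr4:115600969-115621602, +). The Cyp4f genes lie on chromosome 17, with Cyp4f15 at chr17:32685627-32703352 (+), Cyp4f14 at chr17:32905070-32917342 (-) and Cyp4f13 at chr17:32924688-32947402 (-). Cyp4v3 lies at chr8:45304944-45333216 (-). Of the exon stretches of 150 bases, the length of 1 read, in Cyp4a12a 25.6% also occur in Cyp4a12b, so reads of this pair could have been lost or assigned to the wrong copy. The same share was 4.04% for Cyp4a10, 3.54% for Cyp4a31 and 6.96% for Cyp4a32, all with each other, and 0 for Cyp4a14 and the Cyp4f genes. In Cyp4v3, 4.48% of stretches lie in the overlapping gene Gm45753.

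RefSeq promoters of GRCm38.p6, from 250 bases before to 50 after the start, were at hand for 5 members, namely Cyp4a32, Cyp4f13, Cyp4f14, Cyp4f15 and Cyp4v3. Cyp4a10, Cyp4a14, Cyp4a31, Cyp4a12a and Cyp4a12b were not among them. The promoters of Cyp4a32, the only Cyp4a gene with an entry, and of Cyp4v3, the only member with an entry that passed a test below, are printed 5′ to 3′ on the gene's own strand. Capitals mark a match to TATAAA on the opposite strand.
Cyp4a32 (chr4:115600688-115600987, +): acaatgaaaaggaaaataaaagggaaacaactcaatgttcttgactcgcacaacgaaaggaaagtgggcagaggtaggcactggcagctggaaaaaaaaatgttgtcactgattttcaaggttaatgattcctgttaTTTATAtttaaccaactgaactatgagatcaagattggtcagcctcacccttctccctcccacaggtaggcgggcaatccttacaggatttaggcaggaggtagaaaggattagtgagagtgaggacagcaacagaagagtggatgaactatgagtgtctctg
Cyp4v3 (chr8:45333114-45333413, -): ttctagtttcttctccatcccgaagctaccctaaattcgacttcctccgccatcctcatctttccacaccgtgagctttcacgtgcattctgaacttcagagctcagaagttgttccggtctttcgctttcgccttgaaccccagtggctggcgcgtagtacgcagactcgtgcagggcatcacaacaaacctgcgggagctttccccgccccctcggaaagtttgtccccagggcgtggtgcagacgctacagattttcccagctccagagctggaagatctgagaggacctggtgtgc
On both strands of the 5 members' promoters, AGGTCANAGGTCA, a strict form of the paired element that PPARA binds, was not found. It occurs in 0.0399% of 32544 mouse promoters of this length. Its single element AGGTCA, found in 16.2% of all promoters, was not found either. TATAAA, in 13.6% of all promoters, occurred in Cyp4a32, and TTCNNNGAA, the element of STAT factors, in 8.33% of all promoters, occurred in Cyp4f13. These matches describe the letters of the windows only.

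Libraries held 6171051 to 9157362 counts, with 16999 to 18297 genes detected and 10.8% to 33.7% of counts from mitochondrial genes. In WT the mitochondrial share did not overlap between diets, at 33.7% and 23.4% under Control and 12.5% and 10.8% under EtOH, and its part in the WT results was not tested. In Elf4-/- it was 18.7% and 18.5% under Control and 22.1% and 18.3% under EtOH. Levels are given as CPM, each gene's counts relative to the library total, after TMM scaling, and as CPM per kb of exon where genes are compared with each other. Elf4 in whole liver was low, with WT means of 1.57 CPM under Control and 3.54 CPM under EtOH, and Elf4-/- means of 1.06 and 3.37 CPM. It did not differ by genotype past the threshold (edgeR quasi-likelihood test, adjusted p = 0.985 under EtOH and 0.912 under Control), and since the deletion is intestinal this does not check the labels. Hepatocyte markers were high in every library and none of the 6 was at 0. The 2 Elf4-/--EtOH libraries stood apart from each other in several of the genes below, so Cyp4 values that turned on 1 of them are also given without it.

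The first question was what alcohol feeding did to Cyp4 mRNA in WT liver. It turned a pool led by Cyp4f15, Cyp4a12a and Cyp4v3 into one led by Cyp4a14 and Cyp4a10. Cyp4a14 rose 179-fold, Cyp4a10 23.6-fold and Cyp4a31 4.12-fold, while Cyp4a12b fell 4.53-fold and Cyp4v3 fell 1.75-fold. With edgeR's quasi-likelihood test and Benjamini-Hochberg adjustment over all genes, 3 of the 10 members rose and 2 fell. Over all genes tested, 10.8% rose and 10.8% fell. Whether libraries overlapped between groups is given below as a description only. With 2 libraries a group, values often separate without any difference, and the share of all genes that did so was not counted.

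**Figure D1:**
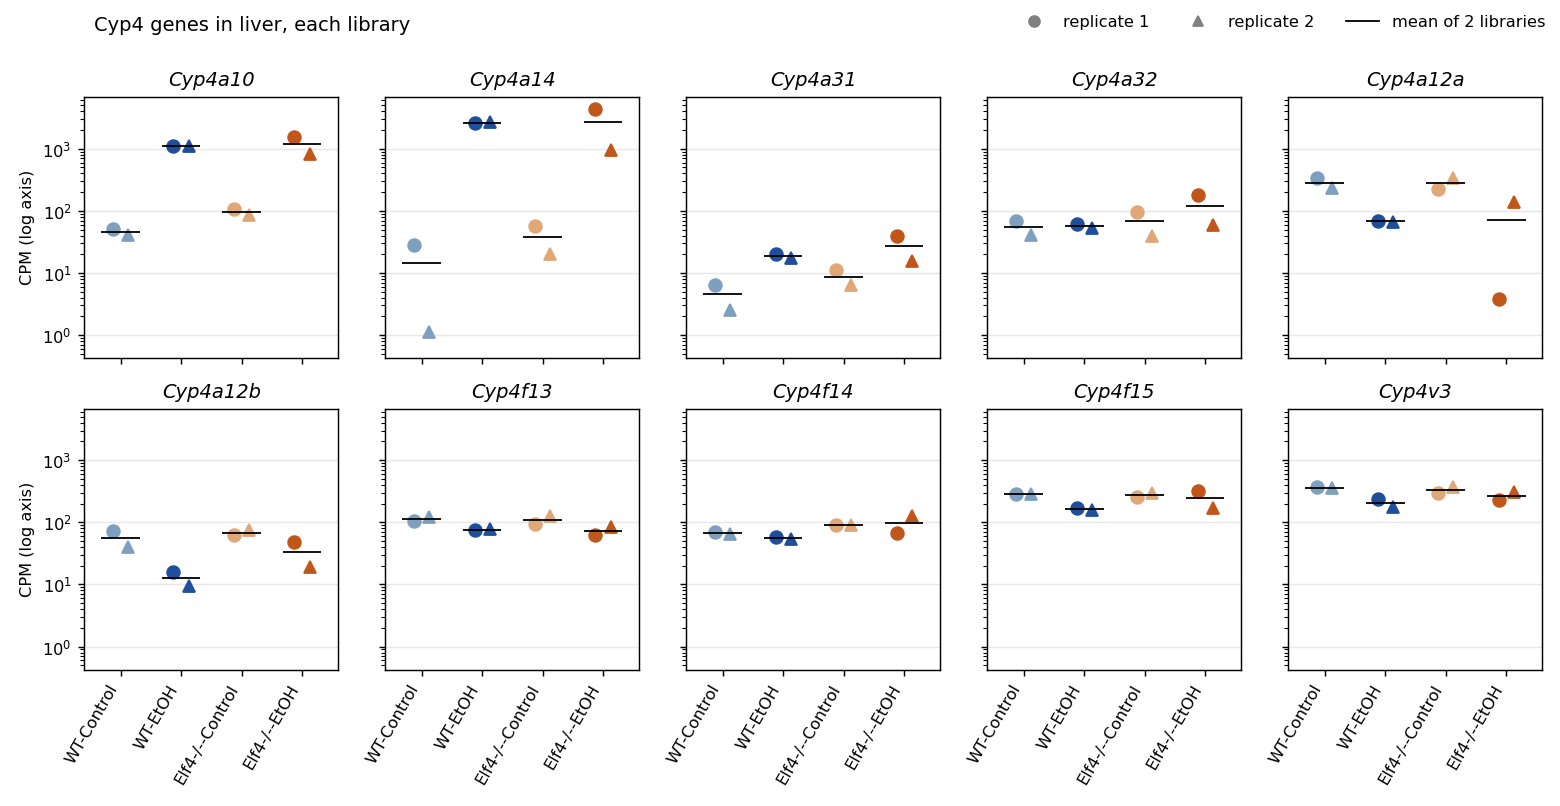
CPM of each Cyp4 gene (log axis) in the 8 libraries, by group. Circles and triangles are replicates 1 and 2 and lines are group means. Cyp4a14 and Cyp4a10 are higher in all 4 EtOH libraries than in any Control library, and Cyp4a12a is at 3.83 CPM in Elf4-/--EtOH replicate 1.

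Cyp4a14, an omega-hydroxylase that is strongly inducible in rodent liver, measured 28.3 and 1.10 CPM in the WT-Control libraries and 2568 and 2717 CPM in the WT-EtOH libraries. The EtOH libraries were close to each other, while the Control libraries rested on 152 and 6 counts and differed widely. The log2 fold change was 7.49 (SE 1.28, edgeR adjusted p = 0.00481), with a 95% interval of 4.63 to 10.34. It was 11.20 without WT-Control replicate 1 and 6.54 without WT-Control replicate 2, so the size of the rise rests on how low the Control level was taken to be. Cyp4a14 alone made up 0.00238% and 9.72e-05% of all counts in the WT-Control libraries and 0.290% and 0.323% in the WT-EtOH libraries.

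Cyp4a10, the lauric acid hydroxylase used as a standard readout of PPARA activity, measured 52.0 and 40.8 CPM in the WT-Control libraries and 1099.8 and 1093 CPM in the WT-EtOH libraries. The groups were far apart and each was tight, at 46.4 ± 7.90 and 1096 ± 4.72 CPM (SD, n = 2 each). The log2 fold change was 4.56 (SE 0.36, edgeR adjusted p = 0.000364), and it ran from 4.40 to 4.74 with any 1 library left out. In relative spread and in the precision of its fold change, Cyp4a10 was the more firmly measured of the pair.

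Cyp4a31 and Cyp4a32 are close relatives of Cyp4a10 on its strand, with exon stretches in common as given above. Cyp4a31 measured 6.53 and 2.58 CPM in the WT-Control libraries and 20.4 and 17.2 CPM in the WT-EtOH libraries. All EtOH values lay above the Control values, and the log2 fold change was 2.04 (SE 0.52, edgeR adjusted p = 0.0217). The call was lost without WT-Control replicate 2 (1.52), WT-EtOH replicate 1 (1.91) or WT-EtOH replicate 2 (2.15). Cyp4a32, whose promoter is printed above, measured 68.1 and 40.7 CPM in the WT-Control libraries and 61.7 and 53.9 CPM in the WT-EtOH libraries. The EtOH values fell between the Control values, and the log2 fold change of 0.09 (SE 0.51, adjusted p = 0.919 by edgeR) had a 95% interval of -1.06 to 1.23. Neighbours within the cluster thus had unlike estimates, though the differences between genes were not tested.

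The Cyp4a12 genes, which make the vasoactive fatty acid 20-HETE in male mice, had estimates in the opposite direction. Cyp4a12a measured 334 and 231 CPM in the WT-Control libraries and 69.9 and 67.1 CPM in the WT-EtOH libraries. The groups did not overlap, but the log2 fold change of -2.04 (SE 0.98) missed the threshold (edgeR adjusted p = 0.163). The shared estimate of its spread included the Elf4-/--EtOH libraries, at 3.83 and 138 CPM. The same contrast was called without Elf4-/--EtOH replicate 1 (-2.04) or replicate 2 (-2.05), and when only the 4 WT libraries were fitted (-2.04). Cyp4a12b measured 73.1 and 39.9 CPM in the WT-Control libraries and 15.7 and 9.38 CPM in the WT-EtOH libraries. Its groups did not overlap either, and the log2 fold change was -2.18 (SE 0.45, edgeR adjusted p = 0.00956). This call was lost without WT-Control replicate 1 (-1.68) or WT-EtOH replicate 2 (-1.86). With the counts of the 2 copies added, which leaves out the question of how reads were split, the log2 fold change was -2.06 and was called.

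The Cyp4f genes had smaller differences. Cyp4f15, the most abundant of them, measured 290.1 and 289 CPM in the WT-Control libraries and 169 and 156 CPM in the WT-EtOH libraries. Its libraries did not overlap between diets, but the log2 fold change of -0.84 (SE 0.28, adjusted p = 0.0581 by edgeR) did not pass. It was called by DESeq2 (-0.84) and without either Elf4-/--EtOH library (-0.84 each). Cyp4f13 measured 105 and 122 CPM in the WT-Control libraries and 75.1 and 77.4 CPM in the WT-EtOH libraries, again with no overlap, and its log2 fold change of -0.57 (SE 0.22) had an edgeR adjusted p of 0.0931. It was called without Elf4-/--EtOH replicate 2 (-0.58). Cyp4f14, the leukotriene B4 hydroxylase of mouse, measured 69.4 and 64.6 CPM in the WT-Control libraries and 57.2 and 53.2 CPM in the WT-EtOH libraries. Its log2 fold change was -0.28 (SE 0.27, edgeR adjusted p = 0.485). With libraries scaled by their totals it was 0.15, the other sign.

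Cyp4v3 measured 368 and 354 CPM in the WT-Control libraries and 235 and 178 CPM in the WT-EtOH libraries. Both EtOH libraries were below both Control libraries, and the log2 fold change was -0.81 (SE 0.25, edgeR adjusted p = 0.0445). Of the 5 calls in WT, this one was lost under the most alternatives run. It was lost without any 1 of the 4 WT libraries (-0.63 to -1.02 across them), without Elf4-/--Control replicate 1 (-0.81) or replicate 2 (-0.81), with no filter on low counts (-0.78), and with libraries scaled by their totals outside the mitochondrial genome (-0.69) or by their totals (-0.38). This last scaling moved the median over all genes in this comparison (log2) from 0.01 to 0.44, and the value for Cyp4v3 moved with it.

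**Figure D2:**
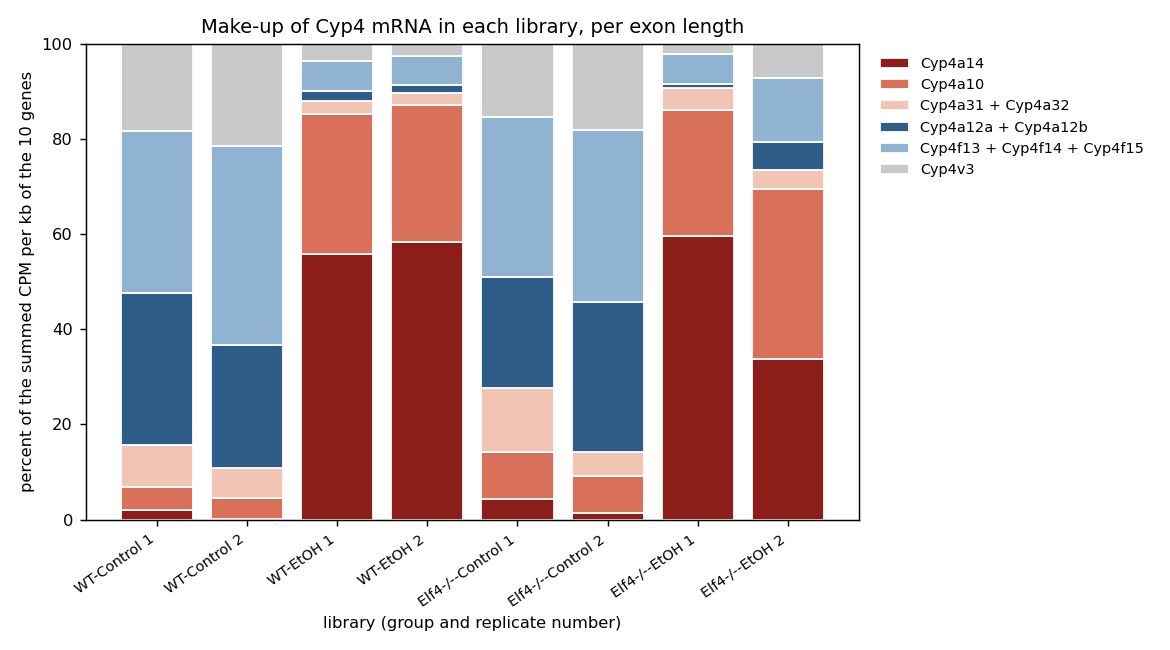
Share of each gene or subfamily in the summed CPM per kb of exon of the 10 genes, 1 bar per library. Cyp4a14 and Cyp4a10 together make up 4.57% to 14.3% in the 4 Control libraries and 69.5% to 87.3% in the 4 EtOH libraries.

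Per exon length, the order of levels in WT-Control was led by Cyp4f15, Cyp4a12a and Cyp4v3, whose neighbours in the order overlapped. Cyp4a14 and Cyp4a31 were at the bottom, at 0.424 to 10.9 and 1.03 to 2.60 CPM per kb. In WT-EtOH, Cyp4a14 stood first at 987 to 1044 CPM per kb, Cyp4a10 next at 518 to 521 and Cyp4f15 after it at 68.2 to 73.9. No neighbours in that order overlapped between libraries. The share of Cyp4a14 and Cyp4a10 in the family's summed level per kb was 6.75% and 4.57% under Control in WT and 85.3% and 87.3% under EtOH. The share of the Cyp4a12 pair went from 31.9% and 25.8% to 2.0% and 1.76%. The members' counts together were 0.117% and 0.104% of the library under Control in WT and 0.494% and 0.526% under EtOH, so the family as a whole took a larger share of the counted reads.

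The next question was what the same diets did where Elf4 was deleted in the gut. Cyp4a14 rose 68.9-fold and Cyp4a10 12.4-fold, and no other member passed the test. Thus 2 of the 10 rose and 0 fell by edgeR, against 1.71% and 1.18% of all genes tested. At an unadjusted p under 0.05, 3 members were higher and 2 lower, beside 21.2% of all genes in either direction, and DESeq2 called 3, of which Cyp4a31 was the addition.

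Cyp4a14 measured 56.6 and 20.4 CPM in the Elf4-/--Control libraries and 4362 and 968 CPM in the Elf4-/--EtOH libraries. Both EtOH libraries were far above both Control libraries, but they differed widely from each other. The log2 fold change was 6.11 (SE 1.19, edgeR adjusted p = 0.0307). Leaving out Elf4-/--EtOH replicate 1 gave 4.64 and leaving out replicate 2 gave 6.79, and the call was lost without Elf4-/--Control replicate 1 (7.02) or replicate 2 (5.56) without either WT-EtOH library (6.08 each), and when only the 4 Elf4-/- libraries were fitted (6.11). Cyp4a10 measured 106 and 86.7 CPM in the Elf4-/--Control libraries and 1563 and 826 CPM in the Elf4-/--EtOH libraries. The same library was the higher one, and the log2 fold change was 3.63 (SE 0.35, edgeR adjusted p = 0.00197). It was 3.10 without Elf4-/--EtOH replicate 1, and the call was lost without Elf4-/--Control replicate 2 (3.49).

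Cyp4a31 measured 11.1 and 6.41 CPM in the Elf4-/--Control libraries and 38.9 and 15.7 CPM in the Elf4-/--EtOH libraries. The groups did not overlap, with a log2 fold change of 1.62 (SE 0.47, adjusted p = 0.0891 by edgeR). It was called without Elf4-/--EtOH replicate 2 (2.11). Cyp4a32 measured 96.8 and 39.1 CPM in the Elf4-/--Control libraries and 178 and 59.3 CPM in the Elf4-/--EtOH libraries, with overlap and a log2 fold change of 0.80 (SE 0.51, adjusted p = 0.398 by edgeR). All 4 of these genes were higher in Elf4-/--EtOH replicate 1 than in replicate 2.

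Cyp4a12a measured 224 and 338 CPM in Elf4-/--Control, but 3.83 and 138 CPM in Elf4-/--EtOH. The first of these rested on 24 counts, the lowest of any library, and both EtOH values were below the Control values. The log2 fold change was -1.98 (SE 0.98, edgeR adjusted p = 0.278), with a 95% interval of -4.17 to 0.21. It was -1.02 without Elf4-/--EtOH replicate 1, and -6.21 and called without replicate 2, so a single library set its size. Cyp4a12b measured 61.7 and 74.7 CPM in the Elf4-/--Control libraries and 47.8 and 19.0 CPM in the Elf4-/--EtOH libraries. Here replicate 1 was the higher of the EtOH libraries, unlike Cyp4a12a, and the log2 fold change was -1.04 (SE 0.42, edgeR adjusted p = 0.196). It was called without Elf4-/--EtOH replicate 1 (-1.84).

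**Figure D3:**
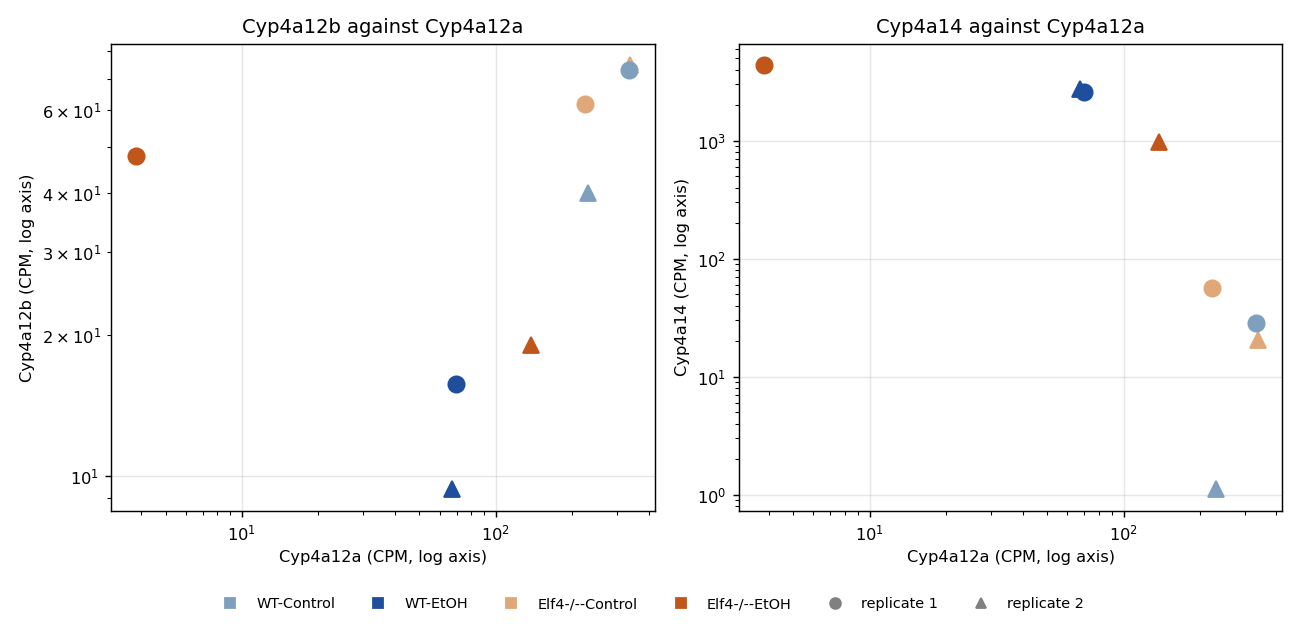
Cyp4a12b (left) and Cyp4a14 (right) against Cyp4a12a in CPM, log axes, 1 point per library, with colour for the group and shape for the replicate. Elf4-/--EtOH replicate 1 lies far to the left in both panels, at 3.83 CPM of Cyp4a12a with 47.8 CPM of Cyp4a12b and 4362 CPM of Cyp4a14.

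Per exon length, Cyp4a12a exceeded Cyp4a12b by 3.59 to 7.20 times in 7 of the 8 libraries. In Elf4-/--EtOH replicate 1 the ratio of CPM per kb was 0.0791, with 24 counts of Cyp4a12a against 300 of Cyp4a12b. The ratio of Cyp4a14 to Cyp4a12a in CPM per kb was 0.0791 and 0.00446 under Control in WT and 34.2 and 37.7 under EtOH. In Elf4-/--Control it was 0.235 and 0.0564, and in Elf4-/--EtOH it was 1062 and 6.53.

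The other members varied less in Elf4-/- mice. Cyp4f13 measured 92.6 and 124 CPM in the Elf4-/--Control libraries and 63.3 and 83.7 CPM in the Elf4-/--EtOH libraries, with no overlap and a log2 fold change of -0.56 (SE 0.22, adjusted p = 0.187 by edgeR). Cyp4f14 measured 89.0 and 88.9 CPM in the Elf4-/--Control libraries and 66.8 and 127 CPM in the Elf4-/--EtOH libraries, so that the EtOH libraries lay on either side of the Control ones. Cyp4f15 measured 258 and 297 CPM in the Elf4-/--Control libraries and 314 and 172 CPM in the Elf4-/--EtOH libraries, again on either side. Cyp4v3 measured 296 and 373 CPM in the Elf4-/--Control libraries and 226 and 304 CPM in the Elf4-/--EtOH libraries, with overlap. The log2 fold changes of these last 3 were 0.12 (SE 0.27), -0.19 (SE 0.28) and -0.34 (SE 0.25), with edgeR adjusted p of 0.829, 0.735 and 0.467.

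**Figure D4:**
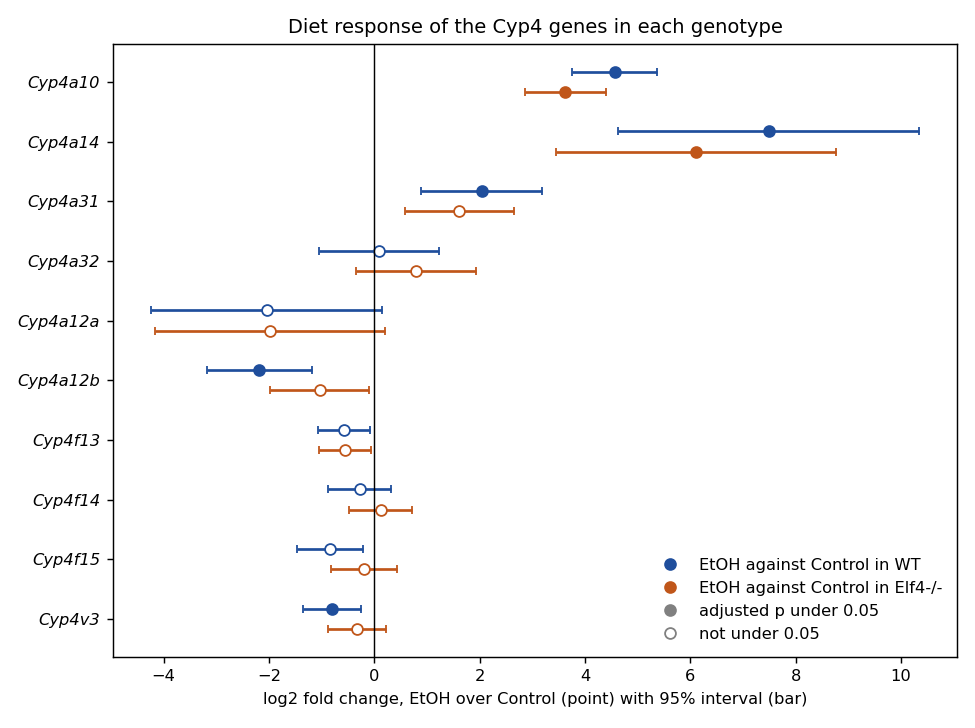
Log2 fold change of EtOH over Control for each Cyp4 gene, in WT (blue) and Elf4-/- (orange), with 95% intervals from the edgeR fit. Filled points passed an adjusted p of 0.05, as Cyp4a10 and Cyp4a14 did in both genotypes. The intervals of the 2 genotypes overlap for every gene.

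Whether the diet response differed between genotypes was tested directly by the interaction term. No member was called by edgeR (0% of all genes tested), none had an unadjusted p under 0.05 (10.1% of all genes did), and DESeq2 called none of the 10. For Cyp4a10 the log2 response in Elf4-/- less that in WT was -0.93 (SE 0.44, 95% interval -1.92 to 0.06, edgeR adjusted p = 0.518). For Cyp4a14 the difference was -1.38 (SE 1.39), with an interval of -4.48 to 1.72 that leaves room for large differences either way. For Cyp4a12b it was 1.14 (SE 0.60, interval -0.20 to 2.49). For Cyp4a12a it was 0.06 (SE 1.34, interval -2.93 to 3.06), but -4.16 and called without Elf4-/--EtOH replicate 2.

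The genotypes were also compared under each diet. Under EtOH, 0 of the 10 members differed by edgeR, beside 0.143% of all genes tested, and DESeq2 called 0. At an unadjusted p under 0.05 there were 2, both higher in Elf4-/-, beside 10.5% of all genes. They were Cyp4a12b, with a log2 difference of 1.42 (SE 0.44, edgeR adjusted p = 0.297), and Cyp4f14, with 0.81 (SE 0.27, edgeR adjusted p = 0.323). Cyp4a12b was called when Elf4-/--EtOH replicate 2 was left out (1.94), and Cyp4f14 when replicate 1 was (1.20). For Cyp4a12a the difference was 0.06 (SE 0.95), but 1.02 when Elf4-/--EtOH replicate 1 was left out and -4.16, called, when replicate 2 was. For Cyp4a14 it was 0.01 (SE 0.95, interval -2.11 to 2.14), and for Cyp4a10 0.12 (SE 0.31, interval -0.57 to 0.81).

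Under Control diet, 0 of the 10 members differed by edgeR, beside 0.0143% of all genes tested, and DESeq2 called 0. The 1 member at an unadjusted p under 0.05, which 7.31% of all genes reached, was Cyp4a10, at 106 and 86.7 CPM in Elf4-/- against 52.0 and 40.8 CPM in WT. These libraries did not overlap, and the log2 difference was 1.05 (SE 0.32, edgeR adjusted p = 0.459). Cyp4f14 did not overlap either, at 89.0 and 88.9 CPM in Elf4-/- against 69.4 and 64.6 CPM in WT. Its log2 difference was 0.41 (SE 0.27, edgeR adjusted p = 0.808). The Elf4-/- and WT values of the other Cyp4a14-type genes overlapped, and Cyp4a12a was near even at -0.01 (SE 0.94).

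Other genes of the same route were read from lists of known roles, which were drawn up with earlier results of these data known. Among the 19 partners of omega-oxidation, 10 rose and 2 fell with EtOH in WT, where 10.8% of all genes rose and 10.8% fell. The number that fell is near the share of all genes. The median change (log2) was 0.87 beside 0.01 over all genes. Ehhadh, the bifunctional enzyme that shortens dicarboxylic acids in peroxisomes, had a log2 fold change of 4.39 (SE 0.52), at 36.5 and 44.5 CPM in the WT-Control libraries and 858 and 843 CPM in the WT-EtOH libraries. Por, which passes electrons to every microsomal P450, rose by 1.74 on the log2 scale and the fatty aldehyde dehydrogenase Aldh3a2 by 1.61. Aldh1a1, another aldehyde dehydrogenase, rose by 2.43 (SE 0.44). Cyb5r3, the cytochrome b5 reductase, fell by 0.75, and the alcohol dehydrogenase Adh4 fell by 1.06. Without any 1 of the 4 WT libraries the calls of Por (1.58 to 1.91) and Adh4 (-0.94 to -1.21) were lost, and Cyb5r3 lost its call without WT-Control replicate 2 (-0.53) or either WT-EtOH library (-0.81 and -0.71). Adh4 and Cyb5r3 also lost theirs without either Elf4-/--Control library. In Elf4-/- mice, where 1.71% of all genes rose and 1.18% fell, 2 of the 19 rose and 0 fell by edgeR, with a median of 0.77. These were Ehhadh (3.08), at 80.1 and 64.7 CPM under Control and 953 and 271 CPM under EtOH, and the aldehyde dehydrogenase Aldh1a1 (2.53), at 284 ± 50.3 and 1644 ± 1092 CPM (SD, n = 2 each). Without Elf4-/--EtOH replicate 1 the values were 1.90 and 1.62, and without replicate 2 they were 3.69 and 3.07. Both calls were lost without either Elf4-/--Control library.

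Of 29 PPARA targets outside the Cyp4 family that were tested, 21 rose in WT and 0 fell, at a median change of 1.61 (log2), where 10.8% of all genes rose and 10.8% fell. Of the 8 that did not pass, 2 had estimates below 0. In Elf4-/-, 7 of the 29 rose and 0 fell, with a median of 0.80, where 1.71% of all genes rose and 1.18% fell. Of this list 4 genes, among them Ehhadh and Aldh3a2, are also omega-oxidation partners. The acyl-CoA thioesterase Acot3 had a log2 fold change of 8.68 (SE 0.47) in WT and 4.59 (SE 0.34) in Elf4-/-. Its means were 0.462 and 197 CPM in WT and 4.04 and 98.1 CPM in Elf4-/- (Control, then EtOH). The size of the WT value thus rests on a Control level near 0. In the interaction of genotype and diet, 0 of the 29 targets were called. Ppara itself, with means of 31.5 and 43.0 CPM in WT and 43.4 and 47.0 CPM in Elf4-/- (Control, then EtOH), did not pass the test in WT (0.45, edgeR adjusted p = 0.260) or in Elf4-/- (0.11, edgeR adjusted p = 0.844). Of the 14 genes listed as Ppara, its partners and coregulators, 1 rose and 2 fell in WT, and 1 rose and 0 fell in Elf4-/-. The WT counts are near the shares of all genes given above and are not read as a result about the list. Pparg, a related receptor, rose in WT (2.11) and in Elf4-/- (2.0), and the coactivators Ppargc1a and Ppargc1b fell in WT, by 1.33 and 1.57 on the log2 scale. Without WT-EtOH replicate 2 all 3 calls in WT were lost (1.96 for Pparg, -0.96 for Ppargc1a and -1.46 for Ppargc1b). Pparg also lost its call in WT without WT-Control replicate 2 (1.77), Ppargc1a without either WT-Control library (-1.39 and -1.28), and Ppargc1b without WT-Control replicate 1 (-1.36) or WT-EtOH replicate 1 (-1.69). In Elf4-/- the call of Pparg was lost without either Elf4-/--Control library (1.64 and 2.40) or either WT-EtOH library (1.98 each).

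Sex-biased liver genes were counted because Cyp4a12 genes are male-biased. Of 19 male-biased genes tested, 15 fell and 1 rose with EtOH in WT (median -2.67), the riser being Ugt2b1, a glucuronosyltransferase (0.74), which was named after its value was seen. In Elf4-/-, 11 fell and 0 rose (median -2.55), where 1.18% of all genes fell, against 10.8% in WT. In WT their summed level was 15440.4 to 20106 CPM under Control and 4018 to 4782 CPM under EtOH. In Elf4-/- it was 13951 to 20102 CPM under Control, with 2200.2 and 4349 CPM for the EtOH libraries. In that last group the lower value belonged to replicate 1, the library with the lowest Cyp4a12a. Hsd3b5, a male-specific steroid reductase, had a log2 fold change of -6.93 in WT and -6.92 in Elf4-/-. Its means were 147 and 1.19 CPM in WT and 106 and 0.796 CPM in Elf4-/- (Control, then EtOH). The SD in Elf4-/--EtOH was 1.13 CPM (n = 2), larger than the mean. With replicate 2 as the only library of that group, the Elf4-/- value became -6.04. On replicate 1 alone it became -12.61, a size set by a level near 0 and not a measured fold change. Of 16 female-biased genes, 9 rose and 0 fell in WT (median 2.20) and 5 rose and 0 fell in Elf4-/- (median 3.10), where 10.8% and 1.71% of all genes rose. Among 14 genes of growth hormone signalling, 2 rose and 1 fell in WT, where 10.8% of all genes rose and 10.8% fell. In Elf4-/-, 0 rose and 1 fell, where 1.71% and 1.18% of all genes did. The WT counts are near those shares and are not read as a result about the list. Bcl6, a repressor, fell in WT by 3.42 and in Elf4-/- by 2.08 on the log2 scale. Cux2 (4.71), which is also on the female-biased list, and Socs2 (1.0) rose in WT. The call of Bcl6 in Elf4-/- was lost without either Elf4-/--Control library (-2.20 and -1.97), and without Elf4-/--EtOH replicate 1 its value was -2.77. Cux2 lost its call without WT-EtOH replicate 2 (3.69), without either WT-Control library (5.44 and 4.23) or without either Elf4-/--Control library, and Socs2 without any 1 of the WT or Elf4-/--Control libraries (0.75 to 1.31). All of the animals are labelled male.

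The 5 genes outside the family whose profile over the 8 libraries was nearest to Cyp4a14 were Cyp2a4, Pdk4, Gsta2, Acot3 and Cyp2b13, by the root mean square difference of log2 CPM centred on each gene's own mean. Those differences were 1.13 to 1.49, where the profile of Cyp4a14 itself varied by 3.97 and Cyp4a10 stood at 2.03. Of these 5, Pdk4, the kinase that switches off pyruvate dehydrogenase, differed most between the Elf4-/--EtOH libraries, at 219 and 8.36 CPM. Nearest to Cyp4a12a were Gm38416, Mup3, Slc22a28, C330002G04Rik and Nox4, at 0.50 to 0.786, where Cyp4a12a itself varied by 1.97. Cyp4a12b, in spite of its sequence, was at 1.98. In Elf4-/--EtOH replicate 1, Cyp4a12a was at 3.83 CPM and Cyp4a12b at 47.8 CPM. In every other library the ratio of Cyp4a12a to Cyp4a12b in CPM per kb was 3.59 to 7.20. Mup3, a major urinary protein gene, measured 449 CPM in Elf4-/--EtOH replicate 1 and 3614 in replicate 2, a likeness to Cyp4a12a by which the gene was chosen. Cyp2a4, Cyp2b13, Gsta2 and Mup3 belong to families with close copies, and the split of reads among the copies is uncertain.

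Of the 14 other Cyp4 genes and pseudogenes listed, 6 were in the table and 3 were tested. Cyp4b1 rose in WT by 3.54 on the log2 scale (SE 0.50, edgeR adjusted p = 0.00257), from 3.54 and 1.10 CPM to 26.8 and 27.6 CPM. The value was 4.60 without WT-Control replicate 1 and 2.94 without replicate 2. In Elf4-/- mice it measured 12.7 and 13.4 CPM under Control and 19.1 and 8.23 CPM under EtOH, with a log2 fold change of 0.06. The difference between the responses was -3.49 (edgeR adjusted p = 0.212). Cyp4f16 and Cyp4f17 did not pass in either genotype.

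In whole liver, fewer cells of a type and less mRNA per cell cannot be told apart. The summed level of the 6 hepatocyte markers in WT was 53242 to 73735 CPM under Control and 36115 to 42615 CPM under EtOH, and in Elf4-/- it was 64721 to 72252 and 42455 to 57107 CPM. In WT, where 10.8% of all genes rose and 10.8% fell, 1 of the 6 rose (Cyp2e1, the ethanol-oxidising P450, 1.07) and 1 fell (Apoa1, -2.34). Cyp2e1 lost its call without WT-Control replicate 1 (0.85), either WT-EtOH library (0.97 and 1.16) or either Elf4-/--Control library (1.07 each), and Apoa1 without WT-EtOH replicate 2 (-1.95). With EtOH in WT all 6 Kupffer cell markers, all 6 of sinusoidal endothelium and 5 of 6 of stellate cells rose, beside 10.8% of all genes. Kupffer cell markers summed to 151 to 199 CPM in WT-Control and 505 to 558 in WT-EtOH, but to 139 to 142 and 189 to 199 in the Elf4-/- groups. In Elf4-/-, Marco alone of the 6 rose (2.81), where 1.71% of all genes rose. That call was lost without either Elf4-/--Control library (3.62 and 2.37) or Elf4-/--EtOH replicate 1 (2.34). Between genotypes under EtOH, 2 of the 6 Kupffer cell markers were lower in Elf4-/- and 0 higher by edgeR, beside 0.143% of all genes. They were Cd5l (-1.69, edgeR adjusted p = 0.0268) and Clec4f (-1.32, edgeR adjusted p = 0.0418). With only the 4 libraries of that comparison fitted, 0 of 13482 genes were called. Endothelial markers summed to 43.8 to 77.8, 244 to 291, 115 to 121 and 118 to 196 CPM in the same order of groups, and stellate markers to 49.3 to 131, 362 to 509.5, 179 to 205 and 289 to 441. The part of cell make-up in the Cyp4 results was not tested. Of 6 intestinal epithelium markers, 4 were in the table and summed to 165 to 256 CPM over the libraries, and none of the 3 tested was called. The table held 2 of 6 kidney tubule, 2 of 6 pancreatic acinar and 2 of 6 adipocyte markers, the last below 1.31 CPM in sum in every library.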

How the data were processed

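The study counted RNA of mouse liver in 8 libraries, 2 in each of 4 groups. Per the study's methods and the submitters' processing notes, the authors sequenced paired reads of 150 bases, mapped them to mm10 with HISAT2, sorted them with samtools, counted reads per gene with HTSeq and tested with DESeq2. Tool versions, annotation, strand setting and the treatment of reads with several possible genes are not given in the sources used here. In the deposited table, each library has 1 column of raw read counts by gene symbol, and all 8 columns were used.

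Members and gene lists were chosen with earlier results of these data known. Genes with few counts were removed with filterByExpr, leaving 13993. All libraries entered 1 edgeR 4.0.16 model (R 4.3.3) with TMM scaling and a factor of 4 groups, and 5 contrasts were tested by quasi-likelihood, adjusted over all genes by Benjamini-Hochberg at a threshold of 0.05. The common biological coefficient of variation was 22.7%. CPM used TMM-scaled library sizes, and log2 CPM for profiles a prior count of 2. The script was tested on simulated counts. Beyond the members, a list's genes could be named if among the 3 with the largest change that were called and averaged 50 counts or more. Not all of these were named, and the choice among them followed no stated rule. Of the male-biased genes, for example, Mup7 (-7.27 in WT) and Selenbp2 (-7.02) were left out and Hsd3b5 was named. Nuclear receptors and omega-oxidation partners could be named freely. Ppargc1b, Cyp4f16, Cyp4f17 and Ugt2b1 fall outside this rule and were named after their values were seen. Alternatives were DESeq2 1.42.0, other scalings and filters, the 4 libraries of a contrast alone, a replicate block, summed copies and each library left out. Coordinates and exon lengths came from GENCODE M21, where 97.4% of symbols matched, and promoters from RefSeq. This annotation need not be the one used for counting. Library totals of 6171051 to 9157362 counts limit low genes, such as Cyp4a14 in WT-Control at 6 counts.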

Additional observations from a re-analysis of the deposited data

How the results depend on the processing

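Of 7 member results that passed, 40 of 56 values with a library left out and 56 of 61 under other alternatives stayed past the threshold, and none changed sign. Of 43 that did not pass, 31 of 344 and 22 of 364 changed sign. The cause was not tested. Members called with EtOH in WT numbered 5, beside 1518 genes higher and 1507 lower of 13993. With only the 4 libraries compared they numbered 8, beside 1758 and 1755 of 13267. In Elf4-/- they numbered 2, beside 239 and 165 of 13993, and 1 with 4 libraries, beside 22 and 18 of 13257. These counts changed with a library left out. So did those of members called between genotypes under EtOH (0) and in the interaction (0). The counts over all genes changed too.

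Scaling by library totals turned the sign of Cyp4f14 with EtOH in WT (0.15), of Cyp4a10 (-0.12), Cyp4a14 (-0.25) and Cyp4a12a (-0.13) between genotypes under EtOH, of Cyp4a12a (0.21), Cyp4f13 (0.15), Cyp4f15 (0.16) and Cyp4v3 (0.11) under Control, and of Cyp4a12a (-0.34), Cyp4f13 (-0.43) and Cyp4f14 (-0.047) in the interaction. Totals outside the mitochondrial genome turned Cyp4a14 (-0.084) and Cyp4a12a (-0.014) under EtOH, Cyp4a12a (0.0014) under Control, and Cyp4a12a (-0.015) and Cyp4f13 (-0.10) in the interaction. No filter turned Cyp4a12a under Control (0.028) and Cyp4f13 in the interaction (-0.020), and summed copies Cyp4a12a under Control (0.043).

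Leaving out a library turned the sign of these log2 values. With EtOH in WT, Cyp4a32 ran from -0.24 to 0.50. In Elf4-/-, Cyp4a32 ran from -0.20 to 1.59, Cyp4f14 from -0.43 to 0.51 and Cyp4f15 from -0.69 to 0.16. Between genotypes under EtOH, Cyp4a10 ran from -0.40 to 0.50, Cyp4a14 from -1.44 to 0.72, Cyp4a31 from -0.25 to 1.04, Cyp4a12a from -4.16 to 1.02 and Cyp4f13 from -0.28 to 0.14. Under Control, Cyp4a32 ran from -0.47 to 0.84, Cyp4a12a from -0.33 to 0.29, Cyp4a12b from -0.093 to 0.78, Cyp4f13 from -0.29 to 0.14, Cyp4f15 from -0.16 to 0.044 and Cyp4v3 from -0.28 to 0.053. In the interaction, Cyp4a31 ran from -1.24 to 0.090, Cyp4a32 from -0.29 to 1.51, Cyp4a12a from -4.16 to 1.02, Cyp4f13 from -0.21 to 0.24 and Cyp4f14 from -0.15 to 0.79.

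No pairing by replicate number was seen, with correlations of deviations from -0.11 to 0.06. The labels do not give the feeding pairs, so these values cannot settle whether libraries were paired. With the replicate block 4 members were called in WT and 3 in Elf4-/-, Cyp4v3 in WT losing its call (-0.80) and Cyp4a31 in Elf4-/- gaining one (1.58). There were 5 in WT with the WT-EtOH numbers crossed, an alternative added after seeing the data. The block turned the sign of Cyp4a14 (-0.62) and Cyp4a12a (-0.40) under EtOH and of Cyp4a12a in the interaction (-0.23).

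Over all genes, EtOH in WT gave 1518 higher and 1507 lower, but 3416 and 634 with library totals. In Elf4-/-, 239 and 165 became 452 and 359 with DESeq2, 136 and 104 with the block, and 22 and 18 with 4 libraries. Between genotypes under EtOH, 17 and 3 became 150 and 32 with DESeq2 and 8 and 2 with the block, and under Control 1 and 1 became 45 and 33. The interaction went from 0 to 80 higher and 27 lower with DESeq2.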
